A study of Coturnix japonica with 54 samples.

Results

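The step described here is the one at which male Japanese quail (Coturnix japonica) on a shortening day went to 12 h of light after 14 h. It compared the pituitary glands of 6 birds labelled 12La with those of 6 birds labelled 14La, 12 of the 54 birds in the series, and each bird's treatment label gave its group. The birds had been housed on 16 h of light, and the day was shortened in steps of 2 h to 8 h and then lengthened in the same steps, with 2 weeks at each photoperiod and 6 birds taken at each. The 12La birds had passed through 16 h and 14 h and then spent 2 weeks on 12 h of light. The 14La birds had passed through 16 h and then spent 2 weeks on 14 h. No strain, age or genotype other than male quail is given in the labels, and body mass guided which birds were taken. The letter a marks the autumn-like shortening and v the spring-like lengthening, so that 12Lv and 14Lv are the same day lengths reached from the other side. Each library holds polyadenylated RNA of 1 gland, made into barcoded cDNA without amplification and read on an Oxford Nanopore sequencer.

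Quail breed on long days and shut down their gonads when the day shortens below a critical length. Light reaching the brain acts through thyrotropin made in the pars tuberalis of the pituitary, which changes thyroid hormone activation in the hypothalamus and through it the release of gonadotropin-releasing hormone. That peptide drives the gonadotrophs of the anterior pituitary, whose products, luteinizing hormone and follicle-stimulating hormone, are each built of a shared alpha subunit (gene CGA) and a beta subunit of their own (FSHB for follicle-stimulating hormone). The alpha subunit is also part of thyrotropin, whose beta subunit is TSHB.

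At 12La the 2 gonadotropin subunit genes that could be measured, CGA and FSHB, had measured levels in every bird below those of all 14La birds. With them fell NTS, the gene of the neuropeptide neurotensin, and LOC107319226, a protein-coding locus without a symbol. COL1A2, a chain of type I collagen, and MBP, a protein of the myelin sheath, passed the threshold in the other direction, MBP through 1 bird. PRL, POMC and TSHB, the other hormone genes with a row, did not pass. Of 1460 genes tested, 5 were lower at 12La, which is 0.342% of them, and 2 were higher, which is 0.137%. Of the 5 lower genes, 4 are described here. Calls are those of edgeR's quasi-likelihood test with a Benjamini-Hochberg adjusted p under 0.05 over the 1460 genes.

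**Figure D1:**
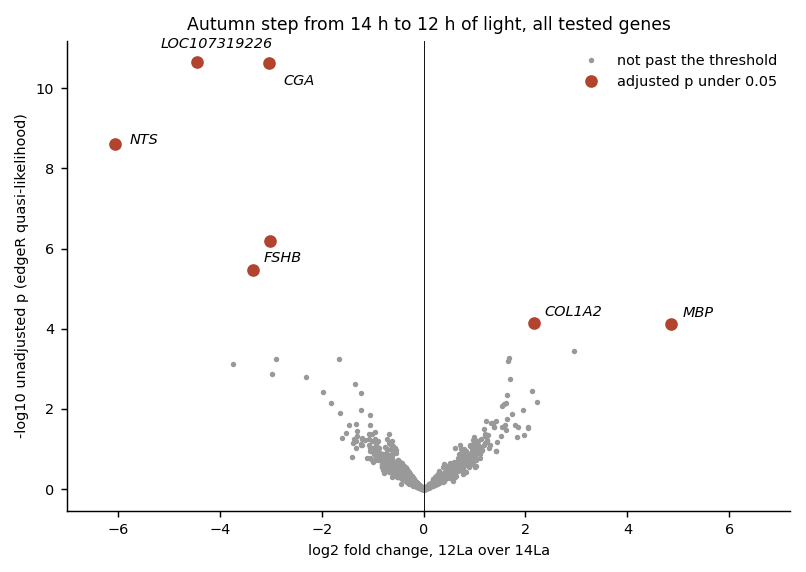
Each point is 1 of the 1460 tested genes, with its log2 fold change (12La over 14La) on the x axis and the −log10 of its unadjusted p on the y axis. The 4 labelled genes that were lower at 12La stand on the left at log2 fold changes of -3.04 to -6.06, and COL1A2 and MBP stand on the right at 2.17 and 4.86.

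The libraries were shallow. Levels below are counts of a gene's largest transcript per 1000000 such counts in the library (CPM). That total was between 6868 and 77713 in the 12La libraries and between 15970 and 51391 in the 14La libraries, and between 820 and 9757 genes at 12La and 4117 and 7349 genes at 14La had a count above 0. The means of neither measure, nor of the share of counts taken by the most abundant gene ACOT9 or the scaling factor, differed between the groups beyond the spread of birds (exact permutation test over 924 splits, two-sided, p = 0.97, 0.792, 0.948 and 0.418, all 0.97 after adjustment over 4 measures). Replicate 6 of 12La stood apart, with 6868 counts and 820 genes, and 1 count in it is worth 146 CPM. Without that library the 5 genes were still called lower. The labels name no sequencing run for a bird, so a run shared by the birds of one photoperiod cannot be told apart from the day length. By the schedule the 12La birds were also taken later than the 14La birds. Time spent in the experiment therefore cannot be told apart from the day length either. PRL, POMC and CGA are defining genes of the pituitary and were present in all 12 libraries, and the 5 hormone genes together made up 9173 to 92880 CPM at 12La and 51847 to 92818 CPM at 14La. The lowest of these sums was in replicate 6 of 12La.

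CGA encodes the alpha subunit of the glycoprotein hormones. Its level at 12La had a lowest value of 1446, a median of 1955 and a highest of 3211 CPM, against 10133, 14640 and 26159 CPM at 14La. The groups did not overlap. The log2 fold change was -3.04 ± 0.44 (SE, n = 6 each, adjusted p = 1.72e-08, edgeR). The 12La libraries held 439 CGA counts in all and the 14La libraries 3153. CGA was called under each of its 25 alternative settings, with log2 fold changes of -2.72 to -3.19. In these bulk samples, fewer cells of a type and less RNA per cell cannot be told apart.

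FSHB encodes the beta subunit of follicle-stimulating hormone. It had 0, 44.2 and 180 CPM (lowest, median and highest bird) at 12La, against 333, 773 and 1691 CPM at 14La. It was detected in 3 of the 6 birds at 12La, with 21 counts, and in 6 of 6 at 14La, with 165 counts. The log2 fold change was -3.35 ± 0.63 (SE, n = 6 each, adjusted p = 0.000975, edgeR). Replicates 1, 5 and 6 of 12La had 0 counts, which allow up to 195, 85.2 and 437 CPM in those libraries by a floor of 3 counts. Replicate 6 was therefore too shallow to show that its level was below the lowest 14La bird. Without replicate 4 of 12La the fitted change was -3.99 on the log2 scale. The call was lost when the counts of all transcripts of a gene were summed (adjusted p = 0.104, edgeR). FSHB has 1 transcript, so its own counts were the same in that fit.

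LOC107319226 lies between BBS2 and NUP93 on chromosome 11 in the Coturnix japonica 2.1 gene table, and neither neighbour had more than 1 count in any of the 12 libraries. At 12La it had 0, 46.4 and 146 CPM (lowest, median and highest bird), against 777, 1172 and 1871 CPM at 14La. The groups did not overlap, and 5 of the 6 birds at 12La had at least 1 count. The 12La libraries held 12 counts and the 14La libraries 252. The log2 fold change was -4.44 ± 0.56 (SE, n = 6 each, adjusted p = 1.72e-08, edgeR). The call was lost on the deposited CPM table (adjusted p = 0.318, limma).

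NTS encodes the precursor of neurotensin, a peptide of neurons and endocrine cells. The 12La libraries held 2 counts, both in replicate 4 (25.7 CPM), against 155 counts at 14La, where the lowest, median and highest birds had 222, 435 and 2216 CPM. The measured values did not overlap, and replicate 6 of 14La alone held 51.6% of that group's counts. The 0 counts of replicate 6 of 12La allow up to 437 CPM, above 3 of the 14La birds, so the separation is not shown for that bird. The summed level was 79.3 times higher at 14La than at 12La, with a counting interval of 21.6 to 660.3 (95%), which covers counting error only. The fitted log2 fold change of -6.06 ± 0.84 (SE, n = 6 each, adjusted p = 1.24e-06, edgeR) rests on those 2 counts in its 12La mean. It was -5.21 without replicate 6 of 14La and -7.43 without replicate 4 of 12La, and called in both cases.

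**Figure D2:**
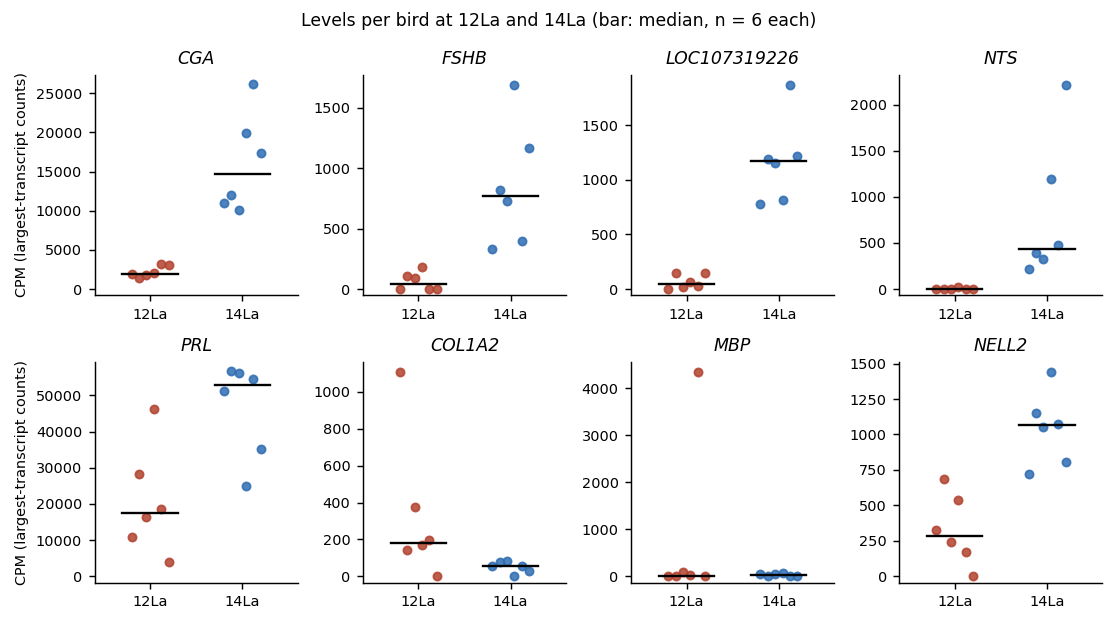
Each panel shows 1 gene, with CPM of its largest-transcript counts on the y axis, 1 point per bird in order of replicate, and a bar at the median of 6 birds (12La on the left, 14La on the right). CGA, FSHB, LOC107319226, NTS and NELL2 show no overlap between the groups, the highest COL1A2 value is 1107 CPM in replicate 1 of 12La, and the highest MBP value is 4348 CPM in replicate 5 of 12La.

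Prolactin (PRL), a hormone of lactotrophs tied to parental behaviour in birds, had 3931, 17507 and 46260 CPM at 12La (lowest, median and highest bird), against 25047, 52873 and 56625 CPM at 14La. Of the 6 birds at 12La, 4 lay below every 14La bird, and replicate 4 held 60.2% of the group's counts. The log2 fold change was -1.35 ± 0.44 and did not pass the threshold (SE, n = 6 each, adjusted p = 0.203, edgeR). POMC, the precursor of adrenocorticotropin made by corticotrophs, had 2184, 17520 and 44227 CPM at 12La, against 5197, 12139 and 17867 CPM at 14La. Its highest and its lowest values were both at 12La, and its log2 fold change was 0.51 ± 0.55 (SE, n = 6 each, adjusted p = 0.993, edgeR). TSHB had 29 counts at 12La and 17 at 14La, and its log2 fold change was 0.46 ± 0.56 (SE, n = 6 each, adjusted p = 0.993, edgeR). Of the 5 hormone genes, 2 were called lower and none higher. Their median log2 fold change of -1.35, against -0.02 over all tested genes, is the value of PRL itself. CGA and FSHB lay below it, and POMC and TSHB were above 0, so the median does not describe a shift shared by the 5. The gene symbols GH and LHB are not analysed here.

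Genes that act in gonadotrophs other than the hormones did not pass. Of 15 listed genes, 12 had a row and 5 were tested, with 0 called and a median log2 fold change of -0.75. EGR1, an immediate early transcription factor that in mammals activates the luteinizing hormone beta gene, had 7 counts at 12La and 54 at 14La. Its level was 0, 22.1 and 146 CPM at 12La (lowest, median and highest bird), against 0, 253 and 514 CPM at 14La, and the groups overlapped. Its log2 fold change was -2.98 ± 0.87 (SE, n = 6 each, adjusted p = 0.138, edgeR). NR5A1, a nuclear receptor that marks the lineage, had 17 counts at 12La and 24 at 14La (log2 fold change -0.77 ± 0.57, SE). PITX1, a homeobox factor of the pituitary, had a log2 fold change of -0.75 ± 0.67 (SE), and TGFBR3, a co-receptor for inhibin, one of 1.54 ± 0.69 (SE).

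Genes of the photoperiodic response itself were too low to test. All 7 with a row of 10 listed failed the filter on low counts. DIO2, which converts thyroid hormone to its active form, had 15 counts at 12La and 4 at 14La. EYA3, a co-activator induced in the pars tuberalis by long days, had 3 counts at 12La and 7 at 14La. OPN5, a photopigment of deep brain photoreceptors, TAC1 and TSHR, the thyrotropin receptor, had 1 count each at 12La and 0 at 14La, and DIO3, which breaks the hormone down, had 0 at 12La and 1 at 14La. A difference in these 7 genes was not detectable at this depth.

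COL1A2 had 0, 183 and 1107 CPM at 12La (lowest, median and highest bird), against 0, 56.1 and 85.7 CPM at 14La. Of the 6 birds at 12La, 5 had measured levels above every 14La bird. The sixth, replicate 6, had 0 counts, which allow up to 437 CPM. Replicate 4 of 14La also had 0 counts, which allow up to 188 CPM, above the 12La median of 183 CPM. The separation of those 5 birds from all 14La birds is therefore within the detection limits. There were 58 counts at 12La and 12 at 14La, and the log2 fold change was 2.17 ± 0.54 (SE, n = 6 each, adjusted p = 0.0159, edgeR). Without replicate 1 of 12La it was 1.61 and not called (adjusted p = 0.377), and the call was also lost without replicate 3 of 12La (0.0875), replicate 4 of 14La (0.0573) or replicate 6 of 14La (0.0583). DESeq2 did not call it either (0.083), and 9 of 24 alternatives in all lost the call.

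COL1A2 belongs to a list of 22 fibroblast and extracellular matrix genes, of which 7 were tested. One of the 7 was called and all 7 had log2 fold changes above 0, between 0.37 and 2.17, with a median of 1.01 against -0.02 over all tested genes. Over all 1460 tested genes, 712 were above 0. For TIMP3, an inhibitor of matrix metalloproteases, the log2 fold change was 1.68 ± 0.48 (SE, adjusted p = 0.077, edgeR). For VIM, the intermediate filament of mesenchymal cells, it was 1.65 ± 0.48 (SE, adjusted p = 0.0784, edgeR). SPARC, a secreted collagen-binding protein, had 172 counts at 12La and 82 at 14La and a log2 fold change of 0.61 ± 0.36 (SE). The 22 genes summed to 728 to 5668 CPM at 12La (median 2844) and to 748 to 3163 CPM at 14La (median 1092), and none of them was at 0 in both groups. The highest sum was in replicate 1 of 12La. The list's median was 0.82 without that library and 1.20 without replicate 1 of 14La. Whether more connective tissue in some dissected glands went with the COL1A2 difference was not tested.

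MBP had 159 counts at 12La, of which 153 were in replicate 5, and 4 counts at 14La. Its level was 0, 12.9 and 4348 CPM at 12La (lowest, median and highest bird), against 0, 21.4 and 62.6 CPM at 14La. The 12La median was thus below the 14La median, and the call (log2 fold change 4.86 ± 1.12, SE, n = 6 each, adjusted p = 0.0159, edgeR) rested on that bird. Without it the log2 fold change was 0.46 (adjusted p = 0.998, edgeR). The call was also lost without replicate 2, 5 or 6 of 14La and by DESeq2, in 11 of 24 alternatives in all. The same library held all 4 counts at 12La of S100B and both of GFAP, proteins of glial and folliculostellate cells. Of 16 myelin, neural and glial genes with a count, 4 were higher in it than in any other library of the series. The 7 myelin and neural genes with a row summed to 5769 CPM there, to 0 to 640 CPM in the other 12La libraries and to 83.1 to 407 CPM at 14La.

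**Figure D3:**
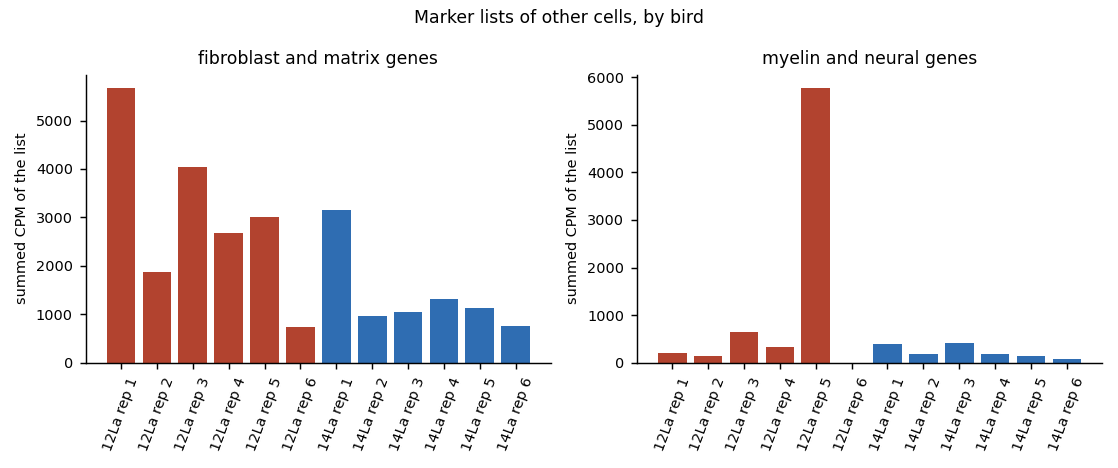
Bars give the CPM summed over the fibroblast and matrix list (left) and over the myelin and neural list (right) in each bird, 12La in red and 14La in blue. The matrix sum is highest in replicate 1 of 12La at 5668 CPM, and the myelin and neural sum stands out in replicate 5 of 12La at 5769 CPM.

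Markers of other cells were few. Of the immune list CD74, the invariant chain of MHC class II, was the only gene tested, with 26 counts at 12La and 4 at 14La (log2 fold change 2.13 ± 0.73, SE, adjusted p = 0.293, edgeR), and PTPRC, which defines leukocytes, had 0 counts in both groups. None of the 10 endothelial genes was tested. They summed to 0 to 287 CPM at 12La (median 155) and 0 to 277 CPM at 14La (median 90.3), and the difference between the sums was not tested. Of the red blood cell list, SLC4A1 was the only gene with a row and had 6 counts at 12La and 5 at 14La. Of the folliculostellate and glial list 4 genes were tested and 0 called, with 2 log2 fold changes above 0 and 2 below. The list's sums had medians of 687 CPM at 12La and 540 CPM at 14La.

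Outside the called genes, the strongest candidates by p did not pass. The next 10 in the lower direction had adjusted p from 0.077 to 0.562 and the next 10 in the higher direction from 0.0656 to 0.466. NELL2, a secreted glycoprotein of neurons and endocrine cells, had 0, 284 and 687 CPM at 12La (lowest, median and highest bird), against 721, 1063 and 1440 CPM at 14La. The groups did not overlap, and the log2 fold change was -1.65 ± 0.45 (SE, n = 6 each, adjusted p = 0.077, edgeR). NELL2 passed under 7 alternative settings. PPP1R1C, an inhibitor of protein phosphatase 1, had 2 counts at 12La and 18 at 14La, and its summed level was 9.21 times higher at 14La than at 12La (95% counting interval 2.20 to 81.8, adjusted p = 0.077, edgeR).

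Not overlapping between the groups were 7 genes lower at 12La, 0.479% of those tested, namely the 5 called genes with NELL2 and PPP1R1C. PPP1R1C had 0 counts in 4 of the 12La birds, whose floors of 66.2 to 437 CPM all lie above its lowest 14La value of 55.4 CPM, so its lack of overlap is within the detection limits. One gene was higher without overlap, 0.0685% of those tested. This was JPT1, with 85.2 to 217 CPM at 12La and 0 to 85.02 CPM at 14La (log2 fold change 1.42 ± 0.60, SE, adjusted p = 0.852, edgeR). Its lowest 12La bird, replicate 5, and its highest 14La bird, also replicate 5, had 3 counts each. Replicate 4 of 14La had 0 counts, which allow up to 188 CPM, above the 12La median of 139 CPM. The lack of overlap of JPT1 is therefore also within the detection limits.

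Further genes with a lower level at 12La that did not pass were EMB, a partner of monocarboxylate transporters (4 counts at 12La, 19 at 14La), PSMA2, a core subunit of the proteasome (6 and 22 in the same order), and KIAA1324 (7 and 25). NRSN1, a neuronal vesicle protein, had 41 counts at 12La and 78 at 14La, and SERPINI1, the protease inhibitor neuroserpin, had 29 and 56 in the same order. LOC107310337 had 0 counts in the 6 libraries at 12La and 11 counts in 3 birds at 14La, where the other birds had 0 counts too. Against a floor of 3 counts over the 12La group, the summed 14La level was 3.75 times as high. That ratio covers neither the spread between birds nor the counting error at 14La, and the gene did not pass (adjusted p = 0.0842, edgeR).

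In the higher direction NDRG4 had 26 counts at 12La and 2 at 14La, a ratio of 14La over 12La of 0.0787 with a 95% counting interval of 0.00905 to 0.314 (adjusted p = 0.0656, edgeR), and it passed under 6 alternative settings. APOA1, the main protein of high-density lipoprotein, had 55 counts at 12La and 14 at 14La (adjusted p = 0.159, edgeR). NDRG1 had 38 and 11 in the same order, DPYSL2, a microtubule-binding protein of growing neurites, 34 and 9, ZBTB20, a zinc finger repressor, 38 and 11, IGFBP5, a binding protein of insulin-like growth factors, 39 and 11, and COL8A2, a short-chain collagen, 18 and 3. None of these 5 passed.

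The machinery of hormone synthesis and secretion showed no called gene. Of the secretory granule list 7 genes were tested, 0 were called and the median log2 fold change was -0.22. CHGA, the chromogranin that packs peptide hormones into granules, had 1310, 11948 and 19289 CPM at 12La (lowest, median and highest bird), against 6482, 11526 and 18723 CPM at 14La. The log2 fold change of its relative CHGB was -0.50 ± 0.47 (SE, adjusted p = 0.993, edgeR), and that of CPE, which trims peptide hormones, was -0.05 ± 0.37 (SE). Of 10 exocytosis genes 0 were called (median -0.29).

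Of 23 tested genes of endoplasmic reticulum translocation and folding 0 were called, and 20 had values below 0 (median -0.37). Over all 1460 tested genes, 748 had values below 0. PDIA3, a disulfide isomerase, had 43 counts at 12La and 73 at 14La (log2 fold change -1.06 ± 0.43, SE, adjusted p = 0.672, edgeR), and HSP90B1, a chaperone, 62 and 77 in the same order. With no scaling factors the list's median was -0.11 while that of all tested genes moved to 0.22, so that the gap between them was -0.34 in both cases.

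Of 74 tested ribosomal protein genes 0 were called, with a median of -0.20, and 60 were below 0, against 748 of all 1460 tested genes. With no scaling factors, which moved all genes upward, the median was 0.01 and 34 were below 0, against 455 of all tested genes. Relative to the median of all tested genes the list's median was -0.18, and -0.22 without scaling factors. Above the median of all tested genes lay 15 of the 74, and 14 without scaling factors. The 50 oxidative phosphorylation genes had a median of -0.17, and of 0.08 without scaling factors, which is -0.15 relative to all tested genes in both cases. For 20 translation factors the medians were -0.12 and 0.09 in the same order, or -0.10 and -0.13 relative to all tested genes. No member of either list was called. The 14 proteasome genes had a median of 0.06 and the 6 circadian clock genes one of 0.45, with 0 called in each. The 3 tested immediate early genes, EGR1 (also in the gonadotroph list), FOS and BTG2, had a median of -1.41 with 0 called. FOS had 7 counts at 12La, 4 of them in replicate 1, and 19 at 14La, and without that library the median was -2.43. The median was -1.13 without replicate 5 of 12La and -1.24 without replicate 1 of 14La. Of the 17 immediate early genes with a row, tested or not, 5 had fewer counts at 12La and 4 had more, and 7 were at 0 in both groups. Lists with 3 to 5 tested genes for lactotrophs and somatotrophs, corticotrophs, and steroid and thyroid receptors held 0 called genes besides, with medians of -0.04, -0.51 and -0.56. Of the cell cycle list 2 genes were tested, CCND1 and CCND2, and neither was called.

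**Figure D4:**
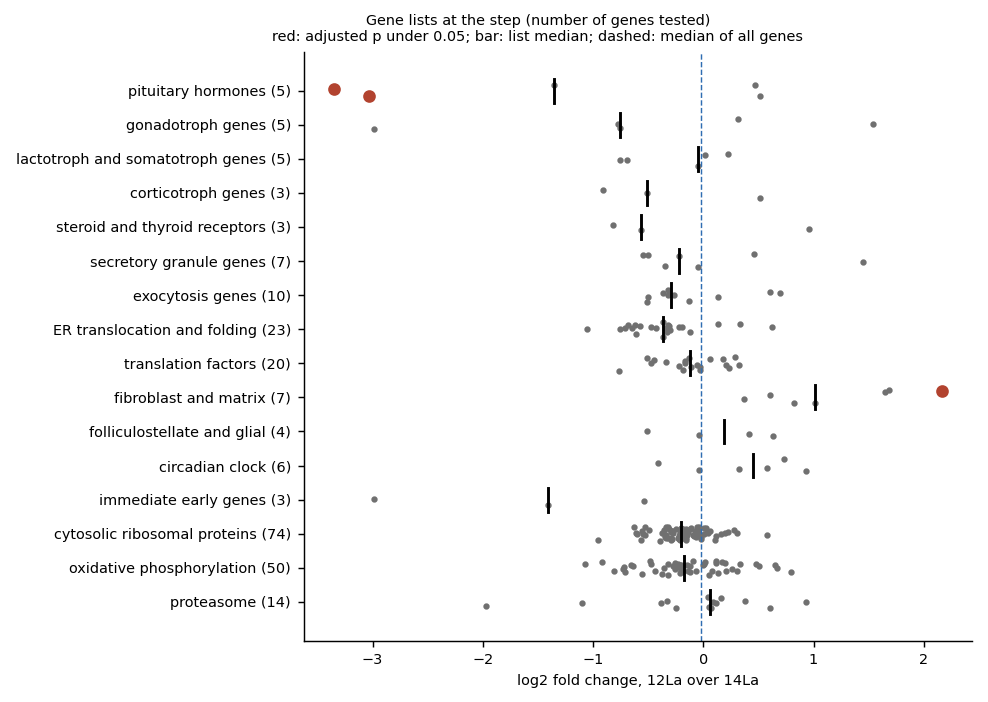
Each row is a gene list with its number of tested genes, each point is 1 gene's log2 fold change (12La over 14La), and the black bar is the list's median. The red points are the called members, CGA and FSHB among the pituitary hormones and COL1A2 among the matrix genes, and the dashed line is the median of all tested genes at -0.02.

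Of the first 3 autumn steps, this was the one with called genes. The step before it, 14La against 16La, and the step after it, 10La against 12La, each had 0 called genes (39 and 54 genes at an unadjusted p under 0.05 by the same test). These steps share the 14La or the 12La birds with the one described, which had 62 of 1460 genes at that unadjusted p. None of these counts exceeds a share of 0.05 of the 1460 genes, the share that such a p gives without any difference. They therefore do not rank the steps. The mean CGA level was 13361 ± 4113 CPM in the 16La birds and 16088 ± 6252 CPM in the 14La birds. In the 12La birds it was 2228 ± 729 CPM, and it was 2426 ± 1278 CPM for 10La and 2875 ± 684 CPM for 8L (SD, n = 6 each). Mean FSHB was 427 ± 354 CPM for 16La, 855 ± 509 CPM for 14La, 62.8 ± 75.3 CPM for 12La and 26.6 ± 32.2 CPM for 10La (SD, n = 6 each), and no count was found at 8L, which allows up to 24.8 CPM over that group. COL1A2 averaged 332 ± 398 CPM at 12La and between 50.6 and 124 CPM at the other 8 photoperiods.

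The step differed from the one before it in 5 genes, all more negative at the step (0.342% of those tested). Among them were LOC107319226 (difference of log2 fold changes -4.92 ± 0.77), NTS (-7.38 ± 1.10), CGA (-3.41 ± 0.67) and FSHB (-4.45 ± 0.92), with SE in each case and adjusted p from 1.31e-05 to 0.00534 by edgeR's quasi-likelihood test. None was more positive (0.0%). The call of FSHB was lost without replicate 6 of 14La (adjusted p = 0.0555, edgeR). Against the next step, CGA was more negative (-3.21 ± 0.77, SE, adjusted p = 0.0294, edgeR, 0.0685% of those tested). COL1A2 (3.76 ± 0.88, SE, adjusted p = 0.0294, edgeR) and MBP (6.90 ± 1.59, SE, adjusted p = 0.0387, edgeR) were more positive (0.137%). Each of these 3 calls was lost when some libraries were left out. That of CGA was lost when replicate 1, 2, 3 or 4 of 12La or replicate 5 or 6 of 14La was left out (adjusted p up to 0.169, edgeR), with the difference between -3.03 and -3.52 throughout. That of COL1A2 was lost without replicate 1 or 3 of 12La or replicate 5 or 6 of 14La. The MBP difference was -1.96 without replicate 5 of 12La, and its call was also lost without any of replicates 2 to 6 of 14La.

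The same day lengths in the lengthening arm gave a different picture, from birds not shared with the step. In that arm 12Lv came before 14Lv, so 12Lv set against 14Lv runs against the order in time. With 12Lv set against 14Lv, 0 genes were called and 48 had an unadjusted p under 0.05, again no more than that share of the tested genes. FSHB was the nearest, with 735, 1510 and 3694 CPM at 12Lv (lowest, median and highest bird), against 0, 314 and 482 CPM at 14Lv (log2 fold change 2.51 ± 0.56, SE, n = 6 each, adjusted p = 0.0526, edgeR). CGA had 10801, 14108 and 31324 CPM at 12Lv, against 7215, 11768 and 24942 CPM at 14Lv.

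The autumn step minus the spring difference passed the threshold in 4 genes, all negative (0.274% of those tested). LOC107319226 gave -6.00 ± 0.72 (SE, adjusted p = 5.63e-09), FSHB -5.86 ± 0.84 (SE, adjusted p = 1.04e-05), CGA -3.35 ± 0.59 (SE, adjusted p = 1.34e-05) and NTS -7.30 ± 1.20 (SE, adjusted p = 5.82e-05), all by edgeR's quasi-likelihood test. The 4 genes were called with each of the 12 libraries of 12La and 14La left out in turn. Single libraries of 12Lv and 14Lv were not left out in this way. LOC107319226 had 0, 1724 and 2754 CPM at 12Lv (lowest, median and highest bird), against 390, 594 and 837 CPM at 14Lv, and 1 bird at 12Lv had 0 counts. NTS had 154 to 306 CPM at 12Lv and 0 to 190 CPM at 14Lv, below the 435 CPM median of 14La at both. These NTS levels rest on few counts, 27 at 12Lv and 12 at 14Lv, the latter in 4 birds.

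**Figure D5:**
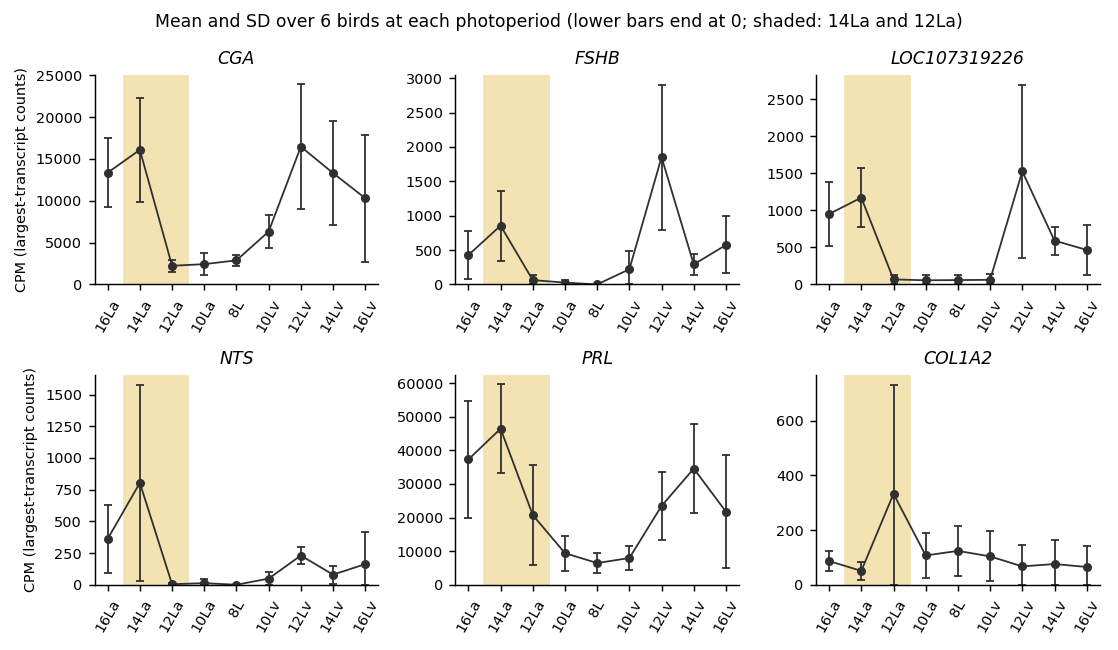
Mean CPM and SD over 6 birds (y axis) are drawn for 6 genes across the 9 photoperiods in the order of the cycle (x axis), with 14La and 12La shaded. CGA, FSHB, LOC107319226 and NTS have lower means at 12La than at 14La and higher means at 12Lv than at 12La, PRL goes on to lower means at 10La and 8L, and COL1A2 has its highest mean, 332 CPM, at 12La.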

How the data were processed

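Pituitary RNA of single birds was sequenced, with 6 birds per photoperiod, and groups were taken from the treatment label. The table of estimated counts deposited by the authors holds 40282 transcript rows, matched to birds by bird number, and 1.18% of its values above 0 are not whole. A deposited table called CPM was checked, and since its columns sum to between 327092 and 1790364 it was treated as a normalised signal. The authors' tools, per the submitters' processing notes, included Salmon 0.14.2, edgeR 3.24.3 and minimap2. The step each tool served, the build and the strand setting were not given in the sources used here. All transcripts matched the Coturnix japonica 2.1 gene table by accession.

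The largest transcript count per gene and bird was rounded, because summed counts are 2.08 times as large and reads appear to be entered on several transcripts. Genes were filtered with filterByExpr (minimum count 3), which left 1460 of 16448, so 91.1% of genes were not tested. The edgeR 4.0.16 quasi-likelihood test (R 4.3.3, TMM factors, robust fit) used all 54 birds with 1 mean per photoperiod and 45 residual degrees of freedom, and Benjamini-Hochberg adjustment at 0.05. Standard errors (SE) were taken as fold change over the root of the F statistic. The script was tested on simulated data. Library measures were compared by exact permutation. Counting intervals are exact, at 95%, and floors are 3 counts.

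Named were all hormone and photoperiod genes with a row, called genes, the next 10 by p in each direction, up to 4 abundant members of each list, genes past the threshold in differences of steps, and genes without overlap. Further list members beside these were named for their role. The birds compared, the gene lists and the alternatives were chosen with earlier results of these data known. The alternatives were other scalings, filters, summed counts, DESeq2 1.42.0, limma 3.58.1 on log2 of the deposited values plus 1, other sets of birds, a depth covariate and leaving out each library. Some genes that the naming rule covers are not reported here.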

Additional observations from a re-analysis of the deposited data

Results flagged for a closer look

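Some single birds were flagged as far from the other 5 of their group, by a gap test that chance passes in about 1 group in 20. NTS had 25.7 CPM in replicate 4 of 12La, where the other 5 birds had 0. That level is 2 counts, and the floors of the other 5 libraries are 66.2 to 437 CPM, so NTS does not set this bird apart. With the other 5 birds at 0, any value above 0 passes the gap test, and its usual rate does not apply. COL1A2 had 1107 CPM in replicate 1 of 12La. MBP had 4348 CPM in replicate 5 of 12La. ACOT9 took 6.25% of the counts in replicate 1 of 14La, below the rest of its group.

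The step differed between the autumn and spring arms in 4 genes by a test of the difference itself (edgeR's quasi-likelihood test). The difference of log2 fold changes was -6.00 for LOC107319226, -5.86 for FSHB, -3.35 for CGA and -7.30 for NTS.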

How the results depend on the processing

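Of 25 alternatives, 22 kept all 5 genes that were lower at 12La. Counts of lower genes were 3 with summed counts, 3 by limma on the deposited table and 8 with only the groups compared, and 5 to 7 with each library left out. Counts of higher genes were 0 with a minimum count of 10, 0 with summed counts, 0 by DESeq2, 0 by limma, 0 without replicates 1 and 5 of 12La together (chosen after seeing the data), 1 without the highest-numbered birds, 5 without libraries under 2000 genes and 6 with only the groups compared. They were 0 to 7 with each library left out, with 7 without replicate 1 of 14La, 0 without its replicate 6, and 1 without its replicates 2 or 5 or without replicates 1 or 3 of 12La. At an unadjusted p under 0.05, DESeq2 had 27 higher genes and limma 4. The arm difference had 9 genes with only the groups compared. It had 4 to 7 with each 12La or 14La library left out (7 without replicate 1 or 6 of 14La). The difference from the next step had 1 gene with a minimum count of 10, 1 with summed counts, 1 by DESeq2, 9 without a filter, 7 with only the groups compared, 0 by limma, 0 without replicates 1 and 5 of 12La, and 0 to 5 with each library left out (0 without replicate 5 or 6 of 14La, 5 without its replicate 1, and 1 without replicate 1 or 3 of 12La). The difference from the previous step had 2 genes with summed counts, 0 by limma and 3 to 6 with each library left out (3 without replicate 6 of 14La). The cause of these shifts was not tested. Over 30 named genes no direction reversed, 672 values stayed on their side of the threshold, 31 newly passed and 24 no longer passed. The group difference in ACOT9 share was 0.12 percentage points and -1.48 with summed counts, and -1.26 to 0.91 with each library left out. The difference in total counts was -7836 to 6333 counts and that in genes detected -392 to 1396 with each library left out. The median log2 fold change of all tested genes was 0.10 with RLE factors, 0.22 without scaling factors and -0.51 by limma. No paired analysis was possible because the columns carry bird numbers that are not shared between photoperiods. Depth limits the rest, since NTS, COL1A2 and MBP failed a minimum count of 10.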

Other observations

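OPTC, the gene of the matrix protein opticin, falls outside the naming rule and was chosen after its values were seen. It failed the filter on low counts, with 0 counts in the 6 libraries at 12La and 13 counts, spread over 6 of 6 birds, at 14La. Without a filter its adjusted p was 0.0438, and with summed counts it was 0.214 (edgeR's quasi-likelihood test).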
